A study of Homo sapiens with 2 samples.

Results

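The genes described here are 10 mesenchymal markers and regulators of the epithelial-mesenchymal transition, taken by symbol: VIM, ACTA2, SNAI2, ZEB1 and LOX on the mesenchymal side, and OVOL1, OVOL2, GRHL2, ESRP1 and ESRP2 on the epithelial side. A probe carrying the gene's symbol was at hand for 5 of the 10 (VIM, ACTA2, LOX, OVOL2 and ESRP1), 1 probe each, among 10161 symbols named on the arrays. SNAI2, ZEB1, OVOL1, GRHL2 and ESRP2 had 0 such probes and are not analysed here. Of the 5 genes with a probe, 4 were detected on both arrays and ESRP1 on neither, at a detection p under 0.01. The detection p gives the chance that a probe without target would be as bright, as the scanner software estimates it on that array.

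RNA came from MCF-10A, a non-tumorigenic human mammary epithelial cell line, transfected either with SCTR siRNA, a small interfering RNA against the secretin receptor gene, or with a negative control siRNA. Both groups are the same line, and each holds 1 Illumina bead array, so no difference below has a replicate check and no p-value was computed. The sources used here do not state the siRNA sequence, its dose or the time after transfection. Differences are log2 levels on the SCTR siRNA array minus those on the control siRNA array, after background correction and quantile normalization.

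In an epithelial-mesenchymal transition, epithelial cells loosen their junctions, rebuild their cytoskeleton and take on a migratory, matrix-producing state. The zinc finger repressors SNAI2 and ZEB1 silence epithelial genes such as E-cadherin, while the transcription factors OVOL1, OVOL2 and GRHL2 hold the epithelial state, in part by repressing ZEB1. ESRP1 and ESRP2 are splicing factors that keep epithelial isoforms of many transcripts. Vimentin, smooth muscle actin and lysyl oxidase are products of the mesenchymal state, and cultured MCF-10A cells are of the basal mammary type, which is known to express vimentin.

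With 0 probes carrying the name SCTR, the knockdown itself could not be read from the arrays, and the labels alone say which array is which. The SCTR siRNA array had 15848 detected probes and the control siRNA array 15229. Of 14 mammary epithelial markers 6 had a named probe, all detected on both arrays, and their summed level was 16.01 on the SCTR siRNA array and 14.50 on the control siRNA array (log2). Named probes were at hand for 1 of 10 fibroblast markers, 0 of 6 endothelial, 1 of 6 blood cell and 1 of 4 adipocyte markers. COL1A1, a fibroblast collagen, had a detection p of 0.0078 on the SCTR siRNA array and 0.192 on the control siRNA array, and so passed only on the SCTR siRNA array. CD14, a myeloid marker, had a log2 level of 13.7 on the SCTR siRNA array and 11.9 on the control siRNA array, and the adipocyte hormone gene LEP had 8.90 on the SCTR siRNA array and 6.44 on the control siRNA array. The part of these markers in the results below was not tested, and in bulk RNA fewer cells of a type and less RNA per cell cannot be told apart.

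The 3 measured mesenchymal genes were nearly level between the arrays. VIM, which encodes the intermediate filament protein vimentin, had an intensity of 6851 on the SCTR siRNA array and 6763 on the control siRNA array. Its normalized log2 levels were 12.74 on the SCTR siRNA array and 12.69 on the control siRNA array, a difference of 0.04. The level on the SCTR siRNA array was thus 1.03-fold that on the control siRNA array, and the detection p was 0 on both. ACTA2, the actin of smooth muscle and myofibroblasts, had intensities of 1988 on the SCTR siRNA array and 1870 on the control siRNA array. Its log2 levels were 10.87 on the SCTR siRNA array and 10.81 on the control siRNA array, a difference of 0.05. Under median scaling in place of quantile normalization both differences turned slightly negative, to -0.17 for VIM and -0.07 for ACTA2, so neither has a settled sign.

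LOX, the lysyl oxidase that cross-links collagen and elastin, had intensities of 2521 on the SCTR siRNA array and 2878 on the control siRNA array. Its log2 levels were 11.23 on the SCTR siRNA array and 11.47 on the control siRNA array, a difference of -0.24, so the level was 1.18-fold higher on the control siRNA array. LOX kept its sign in each of the 7 other settings tried, between -0.37 and -0.22. For scale, 2 probes of one gene gave differences that lay a median of 0.20 apart over the 1902 genes with 2 or more detected probes. A difference of the size of that of LOX is therefore close to the disagreement between probes of a single gene on these same arrays. Both probes read the same RNA, so variation between cultures or transfections is not part of that disagreement. Among the 8661 genes detected on both arrays, 4.90% were closer to 0 than VIM, 5.93% closer than ACTA2 and 26.7% closer than LOX. The share of genes within 0.1 of 0 was 11.6%, which includes VIM and ACTA2.

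**Figure D1:**
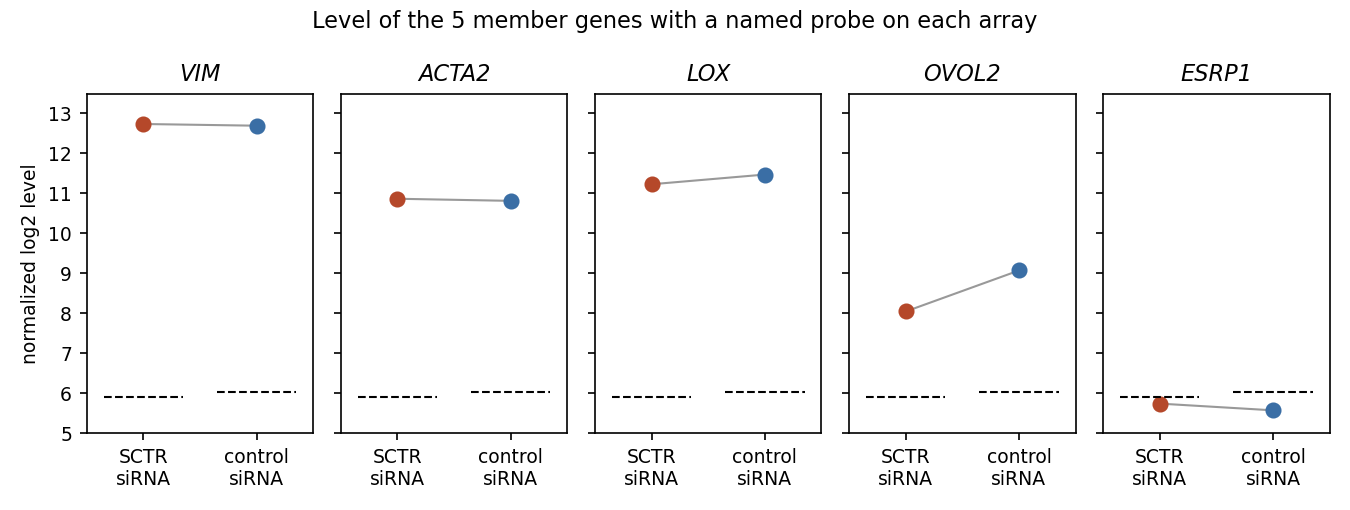
Normalized log2 level (vertical axis) of the 5 members with a named probe, 1 panel per gene, on the SCTR siRNA array (left, red) and the control siRNA array (right, blue), 1 array each. Dashed lines mark each array's lowest detected level. The points of VIM, ACTA2 and LOX are nearly level, OVOL2 is at 8.05 on the SCTR siRNA array and 9.07 on the control siRNA array, and both ESRP1 points lie under the dashed lines.

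On the epithelial side OVOL2 was lower on the SCTR siRNA array. OVOL2 encodes a zinc finger repressor that keeps epithelial cells from switching to the mesenchymal state. Its intensity was 364 on the SCTR siRNA array and 620 on the control siRNA array, with a detection p of 0 on both. The log2 levels were 8.05 on the SCTR siRNA array and 9.07 on the control siRNA array, a difference of -1.03, or 2.04-fold higher on the control siRNA array. Both stood above the dimmest detected probe of their array, which was at 5.91 on the SCTR siRNA array and 6.04 on the control siRNA array. The call of at least 2-fold rests on the background correction, since the difference was -0.82 without it, -0.94 with an offset of 50 and -0.80 in the authors' processed values. It was negative in each of the 7 other settings, and the gene has no second probe against which to read it.

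ESRP1 was close to background on both arrays. Its intensity was 149 on the SCTR siRNA array (detection p 0.0182) and 137 on the control siRNA array (detection p 0.0429). The log2 levels of 5.74 on the SCTR siRNA array and 5.57 on the control siRNA array both lay below that of the dimmest detected probe, so no fold is given. Of ZEB1 itself no value is at hand. ZEB1-AS1, a non-coding RNA transcribed from the strand opposite ZEB1, was looked at after the values were seen, and it is no measure of ZEB1. Its detected probe had a log2 level of 6.76 on the SCTR siRNA array and 7.60 on the control siRNA array, a difference of -0.84, and of -0.48 in the authors' processed values. The other probe of ZEB1-AS1 was not detected on either array, with detection p-values of 0.125 on the SCTR siRNA array and 0.0182 on the control siRNA array.

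Set side by side, 1 of the 4 measured members was at least 2-fold apart between the arrays, where 18.2% of all 8661 genes were. By direction, 8.44% of all genes were lower by that much on the SCTR siRNA array, as OVOL2 was, and 9.74% were higher. That balance turned under median scaling, where 726 genes were higher and 915 lower, against 844 higher and 731 lower as reported. The difference of OVOL2 was 1.07 below the median of VIM, ACTA2 and LOX, and 7.77% of all genes had a lower value than OVOL2. The epithelial side of this comparison is 1 gene. Over all genes the median difference was -0.09 (SD over genes 0.80).

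**Figure D2:**
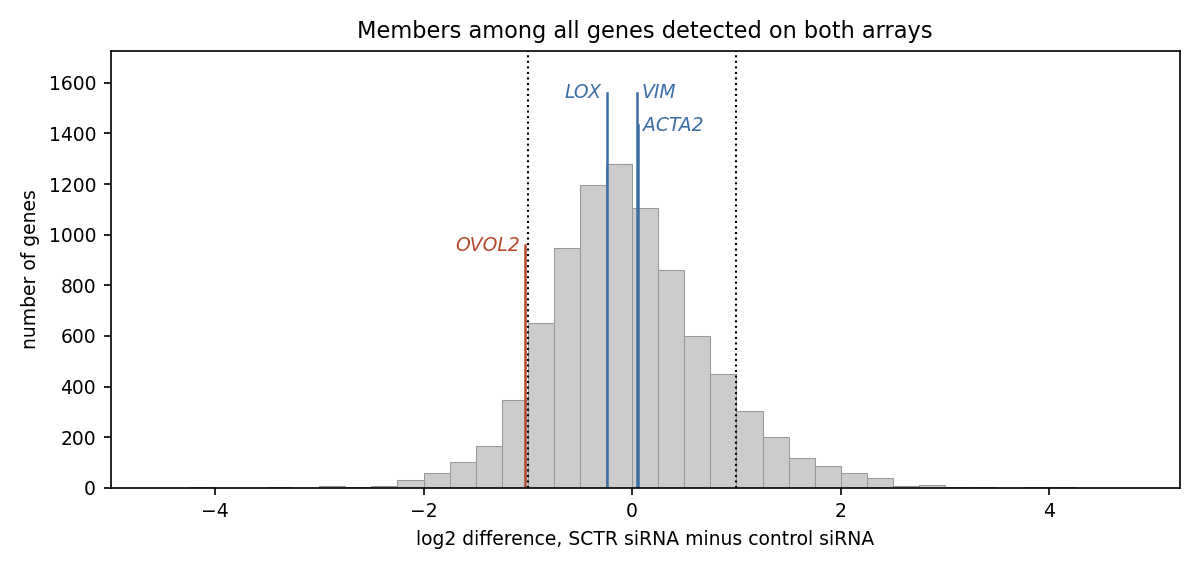
Number of genes (vertical axis) by log2 difference, SCTR siRNA minus control siRNA (horizontal axis), for the 8661 genes detected on both arrays. Coloured lines mark the 4 measured members and dotted lines 2-fold. VIM, ACTA2 and LOX fall in the central peak, and OVOL2, at -1.03, falls just outside the lower dotted line.

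The other mesenchymal markers detected on both arrays at p under 0.01 did not share the near-level values of VIM, ACTA2 and LOX. In a list of 24 structural and matrix markers, 8 had a named probe and 6 were detected on both arrays. Of these 3 were higher by 2-fold or more on the SCTR siRNA array and 0 lower, beside 9.74% and 8.44% of all genes, and the other 3 were VIM, ACTA2 and LOX. The count of 3 was 2 in the authors' processed values. The median was 0.75, against -0.09 over all genes, but it was 0.05 at a detection p under 0.05. There the collagen chain COL6A2 enters, near level at -0.08. Its detection p was 0.0312 on the SCTR siRNA array and 0.0351 on the control siRNA array. Tenascin, TNC, a matrix glycoprotein of remodelling tissue, had a log2 level of 8.93 on the SCTR siRNA array and 6.89 on the control siRNA array. The collagen chain COL6A1 had 8.09 on the SCTR siRNA array and 6.64 on the control siRNA array, a difference of 1.46. The calcium-binding protein S100A4 had 12.45 on the SCTR siRNA array and 10.80 on the control siRNA array, a difference of 1.66. TNC and COL6A1 were dim on the control siRNA array. Their differences were 1.46 and 0.93 without background correction, and also 1.46 and 0.93 in the authors' processed values.

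ACTA2 stood in the middle of a contractile list that went both ways. Of 18 actin and smooth muscle genes 10 had a named probe and 8 were detected on both arrays, 3 at least 2-fold higher, 1 at least 2-fold lower and 4 in between. Their median was 0.41. Of all genes 9.74% were higher and 8.44% lower by that much. The count of 3 was 2 under median scaling, where ACTN1 was at 0.98. It was 5 with no detection filter, where TAGLN and SMTN enter. Both passed detection only on the SCTR siRNA array, where they are brighter, so the count of 5 is no independent check. CALD1, the actin-binding regulator caldesmon, had a log2 level of 8.18 on the SCTR siRNA array and 6.12 on the control siRNA array, and its difference of 2.06 was 1.23 in the authors' processed values. SRF, the transcription factor that drives smooth muscle actin genes, had 11.03 on the SCTR siRNA array and 9.59 on the control siRNA array. The actin cross-linker ACTN1 had 12.31 on the SCTR siRNA array and 11.17 on the control siRNA array. Tropomyosin TPM1, which stabilises actin filaments, went the other way with 8.36 on the SCTR siRNA array and 10.50 on the control siRNA array, and its 2 probes gave -2.13 and -2.11. The calponin-family gene TAGLN and the smoothelin gene SMTN were detected on the SCTR siRNA array alone, with bounds under 2-fold.

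VIM and LOX were also set beside genes of their protein families and genes whose products work with theirs. In the list of intermediate filament genes and their partners 3 of 10 were detected on both arrays. Of these 0 were at least 2-fold apart, where 18.2% of all genes were, and the median of 0.07 was -0.05 under median scaling. Next to VIM these were the linker protein plectin, PLEC, which at 0.84 was over 1.5-fold higher, and the keratin KRT8 at 0.07. In the list of lysyl oxidases and their processing genes 3 of 10 were detected on both arrays, with a median of -0.24. Again 0 of them were at least 2-fold apart, beside the same 18.2% of all genes. With 3 genes in each list, a count of 0 says little beside that share. BMP1, the protease that activates lysyl oxidase, was at 0.47 and the elastic fibre protein gene FBLN5 at -0.50. None of the paralogs LOXL1, LOXL2, LOXL3 and LOXL4 had a named probe here, so LOX is the only lysyl oxidase measured.

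Of 14 transcription factors that can induce the transition, 4 had a named probe, and SNAI1, SNAI3 and ZEB2, the paralogs of SNAI2 and ZEB1, were not among them. The 3 detected on both arrays were all higher on the SCTR siRNA array, 1 of them by at least 2-fold, beside 9.74% of all genes. Their median was 0.49, against -0.09 over all genes. SOX9, which cooperates with SNAI2 in mammary stem cells, had a log2 level of 9.15 on the SCTR siRNA array and 6.08 on the control siRNA array. The difference of 3.07 was 2.03 in the authors' processed values, and SOX9 lay close to background on the control siRNA array (detection p 0.0078). The E-protein gene TCF3 was at 0.49 and the AP-1 member FOSL1 at 0.49. FOSL1 was dim on both arrays, with log2 levels of 6.87 on the SCTR siRNA array and 6.38 on the control siRNA array. Its difference was 0.26 in the authors' processed values. The forkhead factor FOXC2 was detected on the control siRNA array alone, with a bound under 2-fold. It went the other way, at -0.64, or -0.25 in the authors' processed values.

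Of 15 genes whose products act with or on SNAI and ZEB proteins, 14 were detected on both arrays, with a median of -0.23. Of these 0 reached 2-fold higher, where 9.74% of all genes did, and 2 reached 2-fold lower, where 8.44% did. BTRC, an F-box protein that marks SNAI1 for degradation, had a log2 level of 6.29 on the SCTR siRNA array and 8.06 on the control siRNA array, and its difference of -1.78 was -1.04 in the authors' processed values. The deacetylase SIRT1 had 8.44 on the SCTR siRNA array and 9.54 on the control siRNA array, a difference of -1.09 that was -0.90 in the authors' processed values. The corepressor deacetylase HDAC1 was at -0.90. The kinase LATS2, dim on both arrays, was at -0.73, or -0.38 in the authors' processed values. The corepressor CTBP1, which binds ZEB1, was at -0.33, and the demethylase KDM1A, which binds the SNAI repressor domain, was at 0.00.

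TGF-beta, the best known inducer of the transition, had 7 measured genes of 12, with a median of -0.11. At least 2-fold higher were 2, at least 2-fold lower was 1, and 4 lay in between. By that much 9.74% of all genes were higher and 8.44% lower. Only 1 gene stayed 2-fold higher once the background step was skipped, since ENG dropped to 0.93. The authors' processed values likewise left 1. The receptor TGFBR2 had a log2 level of 12.80 on the SCTR siRNA array and 13.84 on the control siRNA array, and its 2 probes gave -1.04 and -1.26. The inhibitory SMAD7, itself a target of the pathway, had 8.60 on the SCTR siRNA array and 7.16 on the control siRNA array. The co-receptor ENG had 8.39 on the SCTR siRNA array and 7.05 on the control siRNA array, a difference of 1.34 that was 0.93 in the authors' processed values. SMAD3, which carries the signal to the nucleus, was at 0.59.

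Among 16 transcription factors of the epithelial state, 6 had a named probe and 5 were detected on both arrays. Of these 0 reached 2-fold higher and 2 reached 2-fold lower, beside 9.74% and 8.44% of all genes. The count of 2 was 1 without background correction, with an offset of 50 and in the authors' processed values, where OVOL2 came within 2-fold. Beside OVOL2 the second was KLF4, a factor that activates E-cadherin in mammary cells. KLF4 had a log2 level of 9.70 on the SCTR siRNA array and 10.90 on the control siRNA array, and its 2 probes gave -1.20 and -1.50. ELF3, an ETS factor of epithelia, was at 0.77, FOXA1 at 0.47 and KLF5 at 0.05, so the median of the 5 was 0.05. GATA3 was detected on the SCTR siRNA array alone, with a bound under 2-fold, and the paralogs OVOL3, GRHL1 and GRHL3 had no named probe here.

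The genes that such factors are known to act on were mostly higher on the SCTR siRNA array. Of 18 epithelial targets of ZEB, OVOL and GRHL factors 16 had a named probe and 12 were detected on both arrays. Of these 9 were positive and 3 negative, with a median of 0.68, against -0.09 over all genes. At least 2-fold apart were 2 higher and 1 lower, beside 9.74% and 8.44% of all genes. At least 1.5-fold apart were 7 higher and 3 lower, where 19.5% and 22.6% of all genes were. In the authors' processed values 5 were higher and 1 lower by 1.5-fold, and under median scaling 5 were higher and 3 lower. E-cadherin, CDH1, the junction protein that ZEB1 and SNAI2 repress, had a log2 level of 13.78 on the SCTR siRNA array and 11.99 on the control siRNA array. The membrane protease ST14 had 11.21 on the SCTR siRNA array and 10.05 on the control siRNA array, and the tight junction scaffold PATJ was at 0.98, or 0.52 in the authors' processed values. MAL2, a protein of apical transport, had 10.26 on the SCTR siRNA array and 11.95 on the control siRNA array, a difference of -1.69. The other 2 negative genes, named after their values were seen, were the polarity gene CRB3 at -0.61, with a second probe at -0.74, and the small GTPase gene RAB25 at -0.62.

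SNAI and ZEB repressors bind the E-box CACCTG, which reads CAGGTG on the other strand. The windows of 250 bases before the annotated starts in the RefSeq promoter table (GRCh38.p14) are shown for VIM, the mesenchymal gene near 0, and for CRB3 and CLDN7, epithelial targets that had differences of opposite sign. Capitals mark the E-box.
VIM: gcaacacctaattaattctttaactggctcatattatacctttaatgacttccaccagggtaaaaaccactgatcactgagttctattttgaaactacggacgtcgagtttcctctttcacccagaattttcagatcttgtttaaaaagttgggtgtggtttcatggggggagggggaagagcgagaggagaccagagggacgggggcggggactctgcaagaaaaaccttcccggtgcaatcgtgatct
CRB3: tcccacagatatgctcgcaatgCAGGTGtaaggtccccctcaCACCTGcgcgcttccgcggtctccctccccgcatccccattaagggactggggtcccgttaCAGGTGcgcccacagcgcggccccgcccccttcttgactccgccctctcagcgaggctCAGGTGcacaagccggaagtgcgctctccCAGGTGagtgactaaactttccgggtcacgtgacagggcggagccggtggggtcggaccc
CLDN7: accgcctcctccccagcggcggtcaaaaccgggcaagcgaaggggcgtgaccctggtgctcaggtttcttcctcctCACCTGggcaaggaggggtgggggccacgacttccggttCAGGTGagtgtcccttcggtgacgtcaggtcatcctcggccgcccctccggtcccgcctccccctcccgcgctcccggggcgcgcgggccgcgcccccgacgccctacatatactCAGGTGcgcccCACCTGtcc

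The VIM window (chr10:17227991-17228240, plus strand) held 0 E-boxes and the CRB3 window (chr19:6464021-6464270, plus strand) held 5. The CLDN7 window (chr17:7262479-7262728, minus strand) held 4, while the window of the other start of CLDN7 held 0. Both windows of ACTA2 held 0, and of the 3 windows of LOX the 2 downstream ones overlap and share 1 E-box, the same site in both. In the CRB3 window a single match to CCGTTA, a motif bound by OVOL proteins, lay from 153 to 148 bases before the start and ended next to the E-box that begins 147 bases before it. On either strand, CACCTG occurred in 17.5% and CCGTTA in 2.45% of all 35116 windows of this length. Counted by gene, 7 of the 10 epithelial targets found in the table had an E-box before at least 1 start, where 20.6% of all 27305 genes had one, and these targets were listed because such repressors are known to act on them. CRB3 and CLDN7, a claudin of tight junctions, both had several E-boxes in the windows shown, and their differences had opposite signs. CRB3 had a log2 level of 10.03 on the SCTR siRNA array and 10.64 on the control siRNA array. CLDN7 had 10.78 on the SCTR siRNA array and 10.12 on the control siRNA array. Any part of the E-boxes in these levels was not tested.

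Of 11 splicing regulators of the transition 8 were detected on both arrays, with a median of 0.13 that was -0.01 under median scaling. Of the 8, 0 reached 2-fold higher and 1 reached 2-fold lower, beside 9.74% and 8.44% of all genes. MBNL2, a muscleblind splicing factor, had a log2 level of 10.20 on the SCTR siRNA array and 11.76 on the control siRNA array, and its second detected probe gave -1.31 beside -1.56. SRSF1 was at 0.43, RBFOX2, which favours mesenchymal isoforms, at 0.40 and the repressor PTBP1 at 0.38. Of 10 transcripts that ESRP proteins splice 6 were detected on both arrays, with a median of 0.62, and these probes give levels and not isoforms. Of the 6, 2 were higher by 2-fold or more and 0 lower, beside 9.74% and 8.44% of all genes. The count of 2 was 1 when background was left uncorrected and 1 in the authors' processed values, where ENAH differed by 0.93. ENAH, a regulator of actin at the cell edge, had 7.91 on the SCTR siRNA array and 6.36 on the control siRNA array, and the polarity gene SCRIB had 10.50 on the SCTR siRNA array and 9.05 on the control siRNA array. The kinase SLK was at 0.72 and the hyaluronan receptor CD44 at 0.53. The catenin CTNND1 was detected on the SCTR siRNA array alone, by 1 of its probes. The bound of 2.38-fold that its level gives rests on the background correction. The same probe differed by 0.81 without that correction and by 0.81 in the authors' processed values.

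**Figure D3:**
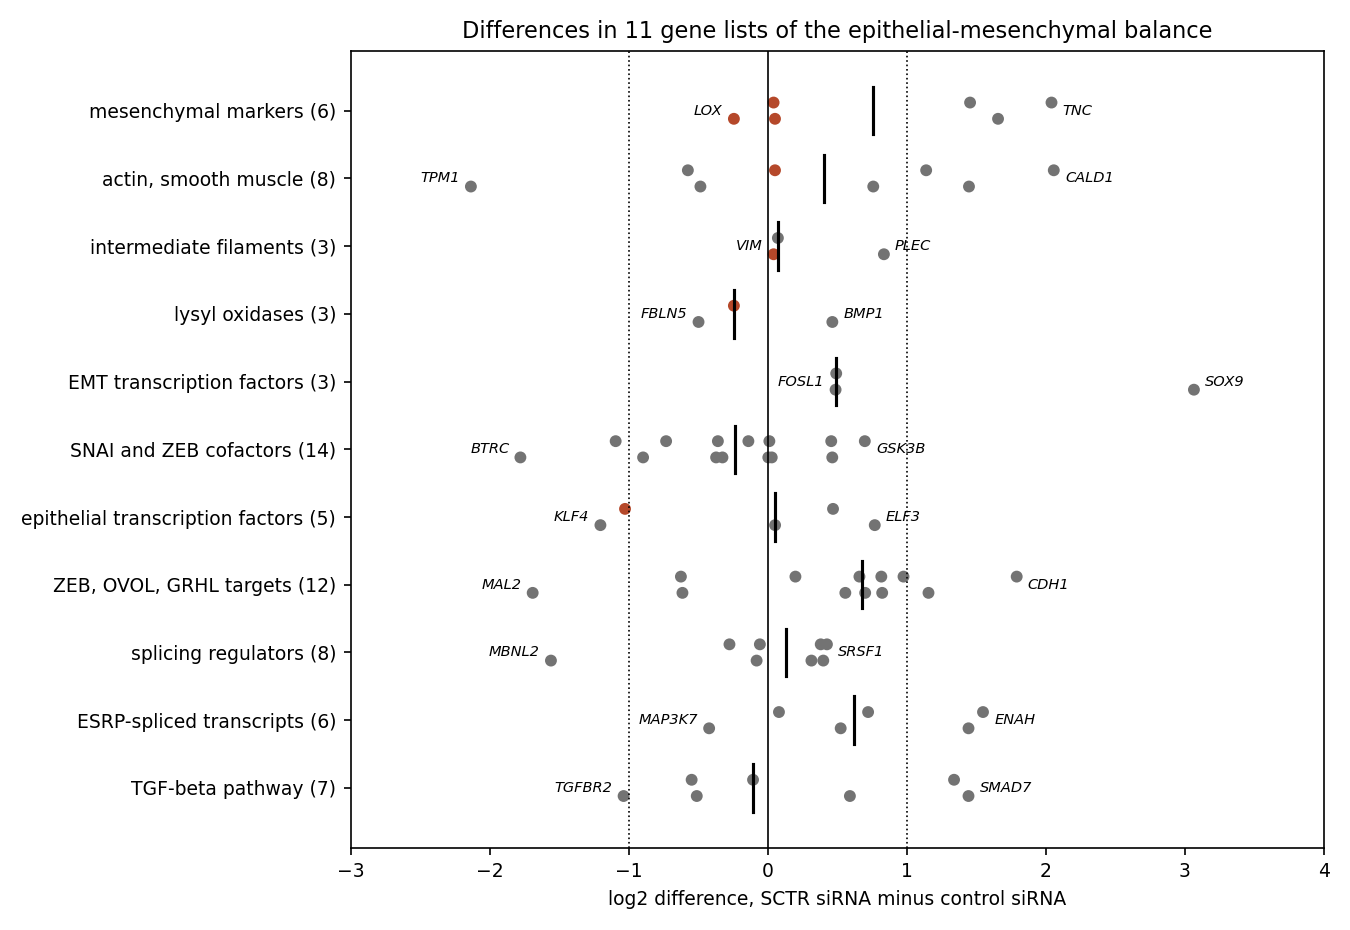
Log2 difference, SCTR siRNA minus control siRNA (horizontal axis), of each gene detected on both arrays in 11 gene lists (rows, number of genes in brackets). Red points are the members described first, grey points other genes, vertical bars the list medians and dotted lines 2-fold. The points of VIM, ACTA2 and LOX lie near 0 while TNC, at 2.04, and CALD1, at 2.06, lie to their right, and OVOL2 and KLF4 lie beyond the left dotted line.

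**Figure D4:**
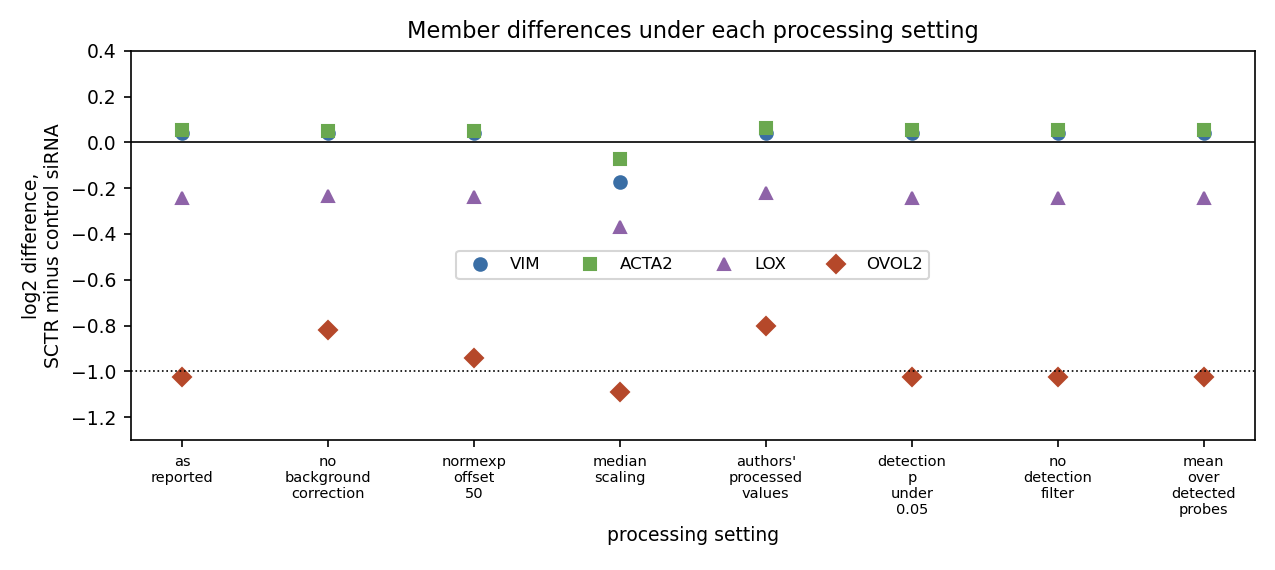
Log2 difference, SCTR siRNA minus control siRNA (vertical axis), of the 4 measured members under each processing setting (horizontal axis). The dotted line marks 2-fold lower. OVOL2 lies between -1.09 and -0.80 in all 8 settings and crosses the dotted line in 3 of the alternatives, and VIM and ACTA2 fall below 0 under median scaling.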

How the data were processed

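Total RNA was cleaned, treated with DNase and turned into biotin-labelled cRNA from 0.55 µg, per the labels' protocols. The authors deposited a non-normalized table with an intensity and a detection p-value for each of 47323 probes per array, for which GenomeStudio 2011.1 is named in the submitters' processing notes. Signals were present for 47316 probes, with median intensities of 124 on the SCTR siRNA array and 122 on the control siRNA array and no negative values. The authors also deposited processed log2 values for 16871 probes, which correlated with the log2 intensities of the same array at r = 1.00 and have a median of 8.57 on both arrays. Their sorted values agree between arrays within 0.000416, as after quantile normalization, and the sources used here do not state its exact steps.

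Symbols came from the platform annotation of the processed table's probes: 13060 had 1 symbol, 3 several and 3808 none. Gene IDs of 13054 probes matched RefSeq (GRCh38.p14), which changed 0 symbols. Intensities were background-corrected with limma 3.58.1 in R 4.3.3 (normal-exponential model, negative control mean and spread inferred through the detection p, offset 16), then log2-transformed and quantile normalized. The steps were tested on simulated data. A gene stands for the brightest of its probes that pass 0.01 on both arrays, and "called" means at least 2-fold. A gene detected on 1 array was bounded against the higher of its dim level and the lowest detected level there.

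The members and the 11 gene lists were chosen with earlier results of these data known. Beyond the members and their paralogs, text names up to 4 genes per list with the largest absolute difference, those with a bound of at least 2-fold, and others chosen after their values were seen (CTBP1, KDM1A, COL6A2, TAGLN, SMTN, FOXC2, GATA3, KLF5, CRB3, RAB25, CLDN7 and ZEB1-AS1). No likeness of pattern was ranked, since 2 arrays give none. With 1 array per group no test, error or interval could be given, and precision is limited by there being only 2 arrays.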

Additional observations from a re-analysis of the deposited data

How the results depend on the processing

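The members were recomputed without background correction, with an offset of 50, with median scaling and from the authors' processed values. They were also recomputed at a detection p under 0.05, without a detection filter and with probes averaged per gene. Named probes came only from the processed table in every setting, so probes absent from it stay out even without the filter. OVOL2, the only epithelial member detected at p under 0.01, stayed negative but came within 2-fold in 3 of the 7 settings, at -0.82 without background correction, -0.94 with an offset of 50 and -0.80 in the authors' values. With ESRP1 admitted, at a detection p under 0.05 or without a filter, the epithelial median was -0.43. The epithelial minus mesenchymal median, -1.07 as reported, was -0.86 without background correction, -0.98 with an offset of 50, -0.91 under median scaling, -0.84 in the authors' values and -0.47 in both looser detection settings.

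Genes at least 2-fold lower numbered 731 as reported, 417 with background left uncorrected and 394 in the authors' values, and a 1.5-fold rule gave 1693 higher and 1955 lower. Median scaling turned the balance, with 726 higher and 915 lower against 844 and 731. The median kept its sign in 9 of 11 lists under all 7 settings, the exceptions being intermediate filaments and splicing regulators under median scaling. Of 154 list counts at 2-fold under an alternative, 10 moved by over 1.5 times. Dim genes depend most on the background treatment, as SOX9, CALD1 and BTRC show beside their values. No paired analysis was possible because each group has 1 array and no result comes from a test.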
